A study of Mus musculus with 6 samples.

Results

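Growth factors released by macrophages are among the signals that reach synovial fibroblasts, chondrocytes and bone cells in a joint. The RNA of 10 such factors was followed here in macrophages cultured with or without cartilage fragments, namely *Tgfb1*, *Igf1*, *Pdgfa*, *Pdgfb*, *Vegfa*, *Vegfb*, *Hbegf*, *Osm*, *Hgf* and *Csf1*. The genes were found by symbol, and all 10 were present among the 24394 gene symbols listed. Bone marrow-derived macrophages of C57BL/6 mice at post natal day 28 were grown from marrow monocytes in M-CSF at 50 ng/ml over 7 days in both groups. The 3 control cultures received nothing more, whereas the 3 exposed cultures received cartilage fragments at a ratio of 5 to 1 for 24 h. Neither labels nor methods say whether the 3 libraries of a group came from separate mice, so the p-values measure the spread between these libraries.

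Most of these factors are made as precursors and act on neighbouring cells through receptors with kinase activity. TGF-beta 1 signals through serine/threonine kinases and SMAD proteins and is known for matrix synthesis, while IGF-1, the PDGFs, the VEGFs, HB-EGF, HGF and M-CSF bind receptor tyrosine kinases. Oncostatin M belongs to the IL-6 family and signals through gp130. Macrophages are a known source of most of them in inflamed synovium, and IGF-1 is a classical stimulus of proteoglycan synthesis by chondrocytes.

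The macrophages carried RNA of all 10 growth factors, and no difference between exposed and control cultures was detected for any of the 9 that passed the minimum level for testing. *Igf1* and *Tgfb1* stood far above the rest, at means of 284 and 169 FPKM over the 6 libraries. FPKM is the number of sequenced RNA fragments divided by transcript length and by library size, so levels can be compared between genes. The other 8 genes lay between 0.939 and 18.3 FPKM. Of the 9 genes averaging 1 FPKM or more, 0 passed an adjusted p of 0.05 in limma, with adjusted p between 0.584 and 0.967, and 0 passed at an unadjusted p of 0.05. Over all 10393 genes tested in the same way, 0.366% passed the adjusted and 9.19% the unadjusted threshold. The exposed mean was higher for 4 of the 9 genes and lower for 5, with a median log2 fold change of -0.08 against 0.004 over all tested genes.

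**Figure D1:**
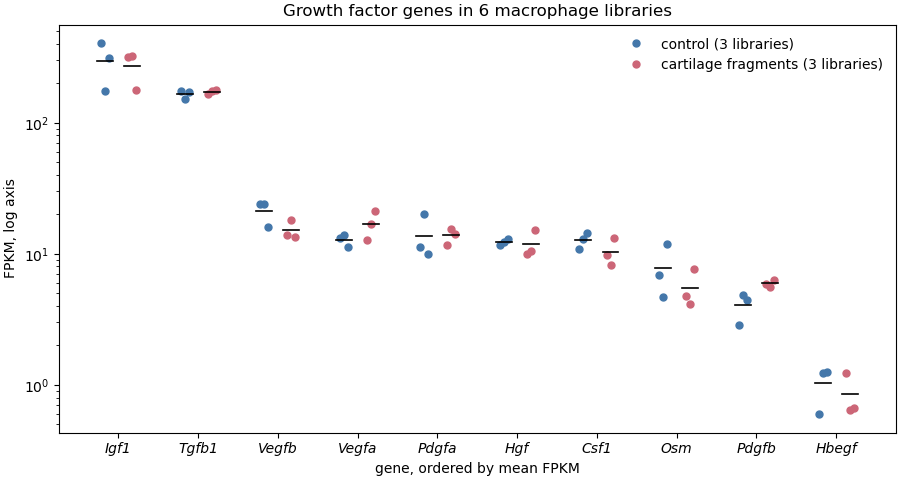
FPKM (log axis) of the 10 growth factor genes in 3 control libraries (blue) and 3 libraries exposed to cartilage fragments (red), each point 1 library and each bar the group mean. *Igf1* and *Tgfb1* form an upper tier with means of 284 and 169 FPKM, and on this sum only the points of *Pdgfb* do not overlap between the groups.

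The deposited values rose in steps that correspond to 699237 to 776371 RNA fragments per library, so genes at a few FPKM rested on few fragments. The methods state a far larger number of mapped reads per sample, so the estimate describes the deposited files and not the sequencing, and every fragment number and counting interval given here rests on it. No pair of libraries agreed within counting error (mean chi-square per gene 1.48 to 1.64 within groups and 2.01 to 2.53 between groups, where 1 stands for counting error alone). Transcripts assembled per library can add to this value, so it cannot tell whether a library repeats another. Each library was treated as separate. All 9 macrophage markers found in the files were above 0 in every library, which alone does not single out macrophages, as some markers of other cell types were too. Their summed level, mainly *Lyz2*, was 29611 to 39317 FPKM in control and 30194 to 40444 FPKM in exposed libraries, far above that of every other cell type listed. Of these markers 2, *Adgre1* and *Cd14*, were among the genes that passed the test in the higher direction. Of 11 chondrocyte markers found, 6 were listed at 0 in every library, and their summed level was 1.54 to 4.22 FPKM in control and 1.18 to 2.82 FPKM in exposed libraries. All 6 lymphoid and all 6 erythroid markers were listed at 0, and dendritic cell and endothelial markers summed to at most 2.72 and 0.892 FPKM. Neutrophil and granulocyte progenitor markers, mainly *S100a8* and *S100a9*, summed to 809 to 948 FPKM in control and 755 to 1098 FPKM in exposed libraries, and 0 of the 5 tested passed in limma. Their part in the growth factor values was not tested. Fibroblast and osteoblast markers summed to 157 to 172 FPKM in control and 106 to 121 FPKM in exposed libraries, mainly *Col1a1* and *Col1a2*. Of these 9 markers, 6 were above 0 in every library while *Bglap* was listed at 0. In limma 0 of the 5 tested passed, and *Col3a1*, *Dcn* and *Runx2* overlapped between the groups. Since *Pdgfa*, *Vegfa*, *Hgf* and *Igf1* are also made by mesenchymal cells, the part of such cells in the values was not tested. In bulk RNA, fewer cells making a transcript and less of it per cell cannot be told apart.

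To show which parts of the transcripts separate the isoforms, 3 alternative coding stretches were read from GENCODE M21 transcripts on mm10 (GRCm38). Capitals mark the stretch that only some models hold, and lower case marks 15 coding bases on either side.
Igf1, 52-base exon at chr10:87915298-87915349, plus strand: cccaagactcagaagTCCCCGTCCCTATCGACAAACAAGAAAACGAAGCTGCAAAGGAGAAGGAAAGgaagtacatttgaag
Vegfa, 132-base exon at chr17:46020991-46021122, minus strand: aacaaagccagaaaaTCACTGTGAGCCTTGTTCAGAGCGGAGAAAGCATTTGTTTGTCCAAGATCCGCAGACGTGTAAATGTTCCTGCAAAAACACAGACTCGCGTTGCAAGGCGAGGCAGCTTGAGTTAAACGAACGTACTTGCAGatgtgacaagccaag
Vegfb, 101-base stretch at chr19:6985496-6985596, minus strand: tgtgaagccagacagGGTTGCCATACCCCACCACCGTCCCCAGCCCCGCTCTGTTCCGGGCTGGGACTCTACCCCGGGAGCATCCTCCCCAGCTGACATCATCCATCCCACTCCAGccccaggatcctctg
The *Igf1* exon lies between the exons for the mature hormone and the end of the precursor, so it changes the E peptide that is cut off. The *Vegfa* exon belongs to the heparin-binding part of the protein and is absent from the freely diffusing form, and the *Vegfb* stretch shifts the reading frame of the carboxyl end (101 bases, remainder 2 on division by 3).

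TGF-beta 1 is secreted in a latent complex and is the best known driver of matrix synthesis among these factors. Its gene (chr7:25687002-25704996, 1 reference transcript) gave 175, 152 and 171 FPKM in control libraries 1 to 3 and 165, 176 and 177 FPKM in exposed libraries 1 to 3. The groups overlapped, and the lowest value was that of control library 2. The means were 166 ± 12.1 FPKM in control and 173 ± 6.57 FPKM in exposed cultures (SD, n = 3 each). The log2 fold change of 0.06 had an SE of 0.087 and an adjusted p of 0.872 (limma), and its 95% interval ran from 0.906-fold to 1.19-fold. With 1418 RNA fragments over the 6 libraries, *Tgfb1* was the gene whose FPKM difference was bounded most tightly.

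IGF-1 had the highest mean FPKM of the 10 factors, and its values need to be read by transcript model. Summed over the models at chr10:87859056-87937047, *Igf1* gave 405, 173 and 311 FPKM in control and 317, 321 and 177 FPKM in exposed libraries. Each group thus held high and low libraries, with means of 297 ± 117 and 272 ± 82.3 FPKM (SD, n = 3 each). The log2 fold change was -0.09, with an SE of 0.39 and an adjusted p of 0.966 (limma).

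The number of RNA fragments assigned to *Igf1* was nearly constant. Scaled to library size (FPM, RNA fragments per 1000000 fragments of the library) it was 1253, 1192 and 1256 FPM in control and 1222, 1227 and 1217 FPM in exposed libraries. On this scale the log2 fold change was -0.01 with an SE of 0.048, and its 95% interval ran from 0.927-fold to 1.06-fold. The libraries that stood apart in FPKM did not stand apart on this scale.

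The FPKM spread followed the short models of *Igf1*. A reference model of 1087 bases held 147 FPKM in control library 3, 159 FPKM in exposed library 1 and 164 FPKM in exposed library 2, and was listed at 0 in the other libraries. Control library 1 held 253 FPKM on a transcript of 1021 bases that was assembled in that library alone. Both short models ended at position 87915770, which is 421 bases past the end of the 52-base exon and 14905 bases before the next exon of the long models. They took 160, 0 and 96 RNA fragments in control and 105, 104 and 0 in exposed libraries, a small part of 851 to 973 fragments per library. Because FPKM divides by length, these fragments weighed heavily in the sum. On the models of more than 2000 bases alone, a choice made after seeing the data, *Igf1* stood at 163 ± 10.6 FPKM in control and 164 ± 11.0 FPKM in exposed cultures (SD, n = 3 each), so that its mean no longer exceeded that of *Tgfb1*.

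**Figure D2:**
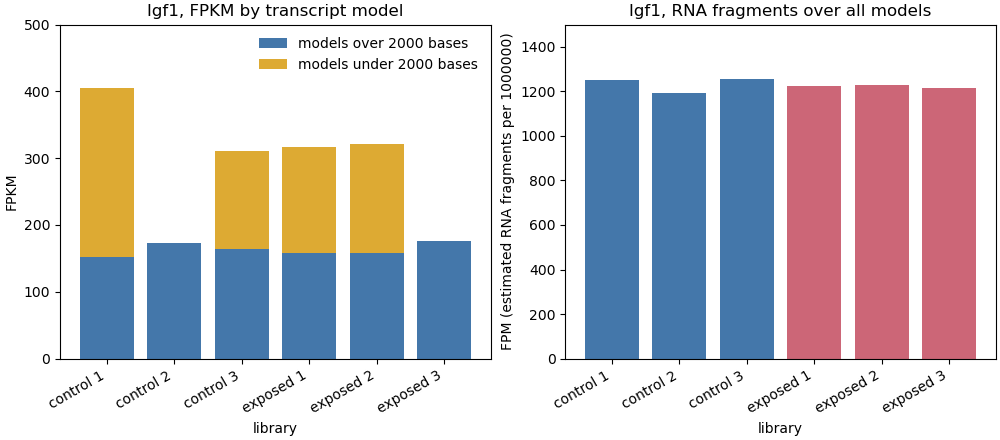
*Igf1* in each library, as FPKM stacked by transcript models over and under 2000 bases (left) and as estimated FPM over all models (right, control in blue and exposed in red). The short models add 147 to 253 FPKM in 4 libraries and nothing in control 2 and exposed 3, while the FPM stay between 1192 and 1256.

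Among the long reference models with and without the 52-base exon, the share of FPKM with it was 38.6%, 45.9% and 37.2% in control and 33.1%, 37.0% and 26.5% in exposed libraries. The groups did not overlap, at means of 40.6% ± 4.68 and 32.2% ± 5.28 (SD, n = 3 each), but the highest exposed and the lowest control share differed by less than either SD, and the levels of 15.9% of all tested genes did not overlap either. The short models run past the end of this exon, and their RNA fragments were also counted as holding it, a choice made after seeing the data. These are shares of RNA fragments and not of FPKM. They were 48.9%, 46.1% and 43.8% in control and 40.9%, 44.5% and 26.7% in exposed libraries, where exposed library 2 exceeded control library 3. Without the short models the fragment shares were 38.8%, 46.1% and 37.4% in control and 33.3%, 37.2% and 26.7% in exposed libraries. In FPKM, which divides by length, the short models would weigh more, and that share was not computed. An exact permutation test of 3 against 3 cannot go below p = 0.1, and none was made on these shares. Long transcripts assembled in control 2 and exposed 3, with 33.2 and 30.4 FPKM, were left out of the shares because their exons are not listed. These libraries held the highest control and the lowest exposed share. Whether the left-out transcripts hold the exon could therefore decide whether the groups overlap.

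PDGF-A and PDGF-B form dimers that are mitogens for fibroblasts and other mesenchymal cells. *Pdgfa* (chr5:138976972-138994953) gave 11.2, 20.0 and 10.0 FPKM in control and 11.6, 15.6 and 14.3 FPKM in exposed libraries. The highest value belonged to a control library and the groups overlapped, with a log2 fold change of 0.07, an SE of 0.29 and an adjusted p of 0.967 (limma). The control library 2 value sat wholly on a transcript of 943 bases assembled in that library. Taken from the reference transcript alone, *Pdgfa* was listed at 0 in control library 2, the groups no longer overlapped and the log2 fold change became 2.62, with an SE of 1.92 and an adjusted p of 0.797 (limma). On reference transcripts, 8.73% of all tested genes lay without overlap in the higher and 6.13% in the lower direction. All 6 libraries together held 48 RNA fragments, 24 in each group.

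*Pdgfb* (chr15:79995876-80014808) was the only one of the 10 genes whose groups did not overlap in FPKM summed over all transcripts. It gave 2.85, 4.88 and 4.47 FPKM in control and 5.88, 5.63 and 6.34 FPKM in exposed libraries, so every exposed library lay above every control library. Such a pattern in the higher direction was seen for 9.04% of all tested genes, so a single case among the members is close to the background. The means were 4.07 ± 1.07 and 5.95 ± 0.361 FPKM (SD, n = 3 each), with a log2 fold change of 0.57, an SE of 0.29 and an adjusted p of 0.601 (limma). The value rested on 25 RNA fragments in control and 35 in exposed cultures, a ratio of 1.46 whose exact 95% counting interval ran from 0.852 to 2.55.

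VEGF-A drives the growth of vessels, and VEGF-B is a ligand of VEGF receptor 1. *Vegfa* (chr17:46016993-46032377) gave 13.1, 13.9 and 11.3 FPKM in control and 12.8, 16.9 and 21.0 FPKM in exposed libraries. Exposed libraries 2 and 3 lay above the controls and exposed library 1 among them. The log2 fold change was 0.38, with an SE of 0.23 and an adjusted p of 0.663 (limma). *Vegfa* had 9 reference models, of which 6 formed pairs that differ by 1 base at the end, and 3 of the models carried a low-data status from Cufflinks in 5 libraries. These were all libraries but control library 1, where 0 lines of any gene had a status other than OK, against 770 to 795 in the others.

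*Vegfb* (chr19:6982472-6987651) had the smallest p among the members. It gave 24.1, 23.9 and 15.9 FPKM in control and 13.8, 18.2 and 13.4 FPKM in exposed libraries, where exposed library 2 exceeded control library 3. The means were 21.3 ± 4.67 and 15.2 ± 2.68 FPKM (SD, n = 3 each), and the log2 fold change of -0.48 had an SE of 0.23, an unadjusted p of 0.0691 and an adjusted p of 0.584 (limma). It rested on 50 RNA fragments in control and 34 in exposed cultures, and the exact counting interval of their ratio, 0.446 to 1.12, includes 1.

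The isoforms of both VEGF genes could not be resolved at this depth. Among *Vegfa* models of full length, the share with the 132-base exon was 36.7%, 35.8% and 0% in control and 100%, 0% and 0% in exposed libraries. These shares came from 17 to 35 RNA fragments per library. The share of *Vegfb* with the 101-base stretch was 100%, 32.6% and 45.2% in control and 0%, 100% and 100% in exposed libraries, from 10 to 20 fragments. The shares jumped between extremes within both groups.

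HB-EGF is a membrane-anchored EGF receptor ligand that is freed by shedding. *Hbegf* (chr18:36504927-36515805) was the lowest of the 10 genes and stood apart from the next one, *Pdgfb*. It gave 0.599, 1.23 and 1.25 FPKM in control and 1.24, 0.645 and 0.666 FPKM in exposed libraries, which corresponds to 1 or 2 RNA fragments per library. With a mean of 0.939 FPKM it fell below the minimum for testing. Without that minimum the log2 fold change was -0.24, with an SE of 0.70, a 95% interval from -1.84 to 1.36 and an adjusted p of 0.944 (limma). The exact counting interval of its exposed to control ratio ran from 0.166 to 3.89.

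Oncostatin M is a product of activated macrophages that acts on synovial fibroblasts and chondrocytes. *Osm* (chr11:4236785-4241026) gave 6.87, 4.72 and 12.0 FPKM in control and 4.74, 4.12 and 7.65 FPKM in exposed libraries. The highest value was a control library and the groups overlapped, with a log2 fold change of -0.45, an SE of 0.39 and an adjusted p of 0.771 (limma). There were 30 RNA fragments in control and 20 in exposed cultures.

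HGF is a mesenchymal factor that acts through the receptor MET. *Hgf* (chr5:16553495-16619439) gave 11.7, 12.3 and 13.0 FPKM in control and 9.90, 10.4 and 15.2 FPKM in exposed libraries. The exposed libraries lay on both sides of the controls, with a log2 fold change of -0.08, an SE of 0.22 and an adjusted p of 0.936 (limma). Assembled transcripts held 5.59 FPKM of the value in control library 3 and 7.48 FPKM of that in exposed library 1. Without them these libraries were at 7.44 and 2.42 FPKM, and the log2 fold change was -0.48 with an adjusted p of 0.840 (limma). A reference model with a status other than OK from Cufflinks in 5 libraries, all but control library 1, held 4.92, 9.12 and 0 FPKM in control libraries. In exposed libraries it held 2.42, 4.08 and 0 FPKM. With such models left out, the log2 fold change was 0.45 with an adjusted p of 0.836 (limma).

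M-CSF, the product of *Csf1*, supports macrophage survival and had been added as protein to all cultures. *Csf1* (chr3:107741048-107760469) gave 11.0, 13.1 and 14.5 FPKM in control and 9.79, 8.16 and 13.1 FPKM in exposed libraries. Exposed libraries 1 and 2 lay below all controls and exposed library 3 among them. The log2 fold change was -0.33, with an SE of 0.24 and an adjusted p of 0.722 (limma).

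In order of mean level, *Igf1* and *Tgfb1* overlapped in range, and a gap separated *Tgfb1* from *Vegfb*. From *Vegfb* down through *Vegfa*, *Pdgfa*, *Hgf*, *Csf1*, *Osm* and *Pdgfb*, each gene overlapped in range with the next, so neighbours in this order are not resolved. Even so, every *Vegfb* value lay above every *Osm* value. Every value of *Vegfb*, *Vegfa*, *Pdgfa*, *Hgf* and *Csf1* lay above every *Pdgfb* value. *Hbegf* lay below the range of *Pdgfb*. On reference transcripts alone the gaps were in the same places, but *Csf1* came before *Pdgfa* and *Hgf*, and the ranges of *Pdgfa* and *Hgf* then overlapped that of *Pdgfb*.

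**Figure D3:**
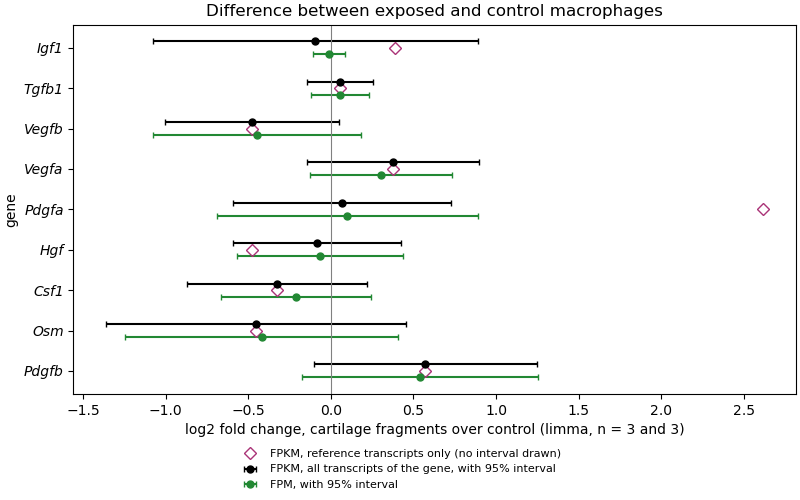
Log2 fold change of exposed over control cultures for the 9 tested genes, in FPKM over all transcripts (black) and in FPM (green), each with the 95% interval from limma, and in FPKM of reference transcripts only (open diamonds). Every interval drawn includes 0, the *Igf1* interval is far narrower in fragments, and the *Pdgfa* diamond at 2.62 lies apart from its other values.

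In FPM, 0 of the 9 genes passed the adjusted threshold, against 2.58% of all tested genes, and 0 passed at an unadjusted p of 0.05, against 11.7%. The same was seen for reference transcripts alone, where 0.184% of tested genes passed the adjusted and 6.52% the unadjusted threshold. When the reference transcripts of the members were tested singly, 0 of 21 passed either threshold in limma, with a smallest adjusted p of 0.805. The width of the counting intervals followed the number of fragments. *Igf1*, with 5469 fragments, had an interval from 0.939 to 1.04 for the ratio of exposed to control, whereas *Pdgfa*, with 48, had one from 0.569 to 1.92. On reference transcripts alone the *Igf1* ratio was 1.06 with a counting interval from 1.004 to 1.12, which excludes 1, as fragments on the assembled transcripts were then left out, most of them in control libraries 1 and 2.

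**Figure D4:**
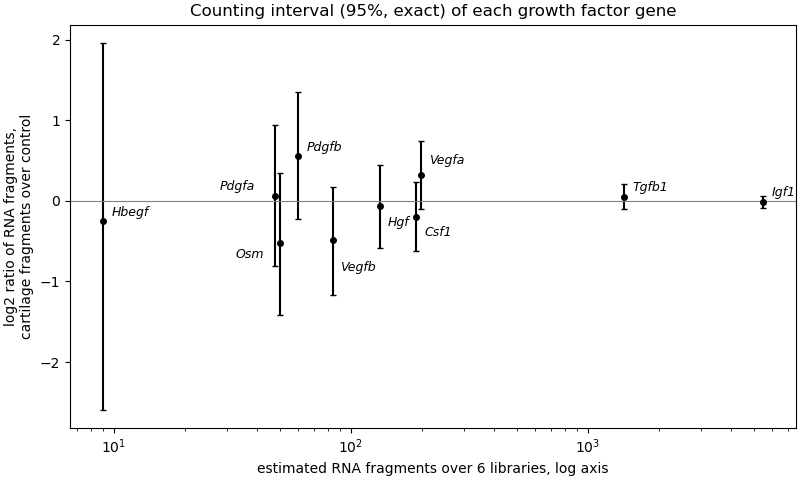
Log2 ratio of RNA fragments in exposed over control cultures against the estimated number of RNA fragments over the 6 libraries (log axis), with exact 95% intervals that cover counting error only, summed over all transcripts of a gene. All 10 intervals include 0, and they narrow from *Hbegf* with 9 fragments to *Igf1* with 5469.

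The receptors, partners and relatives of the 10 factors were gathered in 10 lists with 124 genes, of which 61 averaged 1 FPKM or more. Of these 61 genes, 1 passed in the higher and 0 in the lower direction at an adjusted p of 0.05 (limma), beside 0.308% and 0.0577% of all tested genes. At an unadjusted p of 0.05 (limma), 9 of the 61 passed, a larger share than the 9.19% of all tested genes. Among the tested genes, the groups did not overlap for 6 in the higher and 4 in the lower direction, beside 9.04% and 6.89%. The median log2 fold change of the 61 genes was 0.02. In FPM 3 genes passed in the higher and 0 in the lower direction, beside 1.72% and 0.856% of all tested genes. On reference transcripts alone, where 60 list genes were tested, 0 passed in either direction, beside 0.145% and 0.0386%. At an unadjusted p of 0.05 (limma) 9 of these 60 passed, again a larger share than the 6.52% of all tested genes. No test of the lists as sets was made.

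The gene that rose was *Socs3*, an inhibitor of cytokine signalling through gp130 that is induced by it. It gave 3.61, 3.18 and 5.93 FPKM in control and 18.1, 17.2 and 14.3 FPKM in exposed libraries. Every exposed library was above every control, with means of 4.24 ± 1.48 and 16.6 ± 1.97 FPKM (SD, n = 3 each), a log2 fold change of 1.98, an SE of 0.28 and an adjusted p of 0.0322 (limma). In FPM its adjusted p was 3.8e-05, and on reference transcripts alone 0.139 (limma). With 1 library left out, the log2 fold change stayed between 1.81 and 2.25 while the adjusted p ran from 0.0198 without control library 3 to 0.202 without exposed library 1, and only without control library 3 did it pass. With the replicate number as a block the adjusted p was 0.135. The other IL-6 family genes tested showed no call, and *Il6* was listed at 0 in every library.

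**Figure D5:**
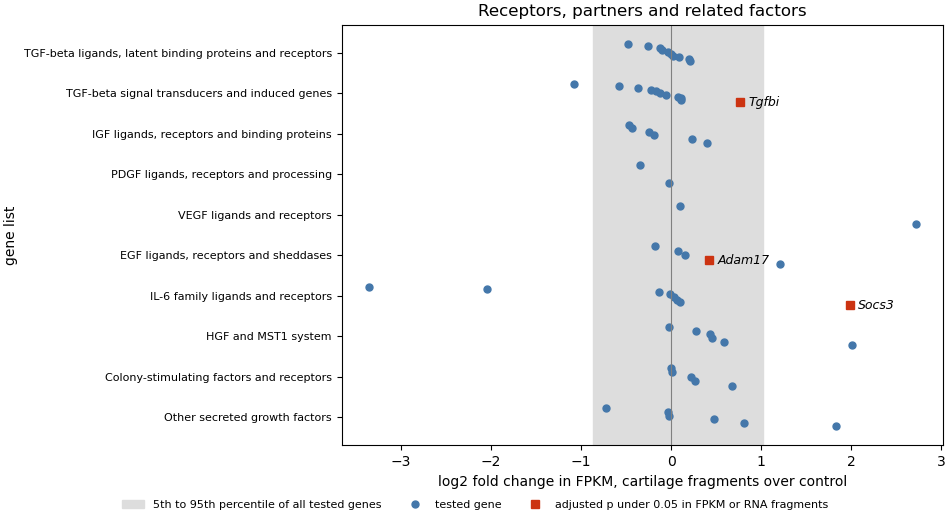
Log2 fold change in FPKM of the 61 tested genes of 10 lists (rows), each point 1 gene, with the span from the 5th to the 95th percentile of all tested genes in grey. *Socs3*, *Tgfbi* and *Adam17*, with an adjusted p under 0.05 in FPKM or in RNA fragments, are drawn as red squares and named.

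Around TGF-beta, both receptors were above 0 in every library and neither passed the test (adjusted p of 0.951 and 0.892 in limma). *Tgfbr1* stood at 38.5 ± 1.65 FPKM in control and 37.4 ± 2.68 FPKM in exposed cultures, and *Tgfbr2* at 26.6 ± 3.79 and 24.7 ± 5.60 FPKM (SD, n = 3 each). *Tgfbi*, a matrix protein named for its induction by TGF-beta, was at 86.2, 83.3 and 74.7 FPKM in control and 163, 127 and 127 FPKM in exposed libraries. Its adjusted p was 0.0705 in FPKM, with a log2 fold change of 0.77, and 2.5e-06 in FPM (limma). The other tested genes of the TGF-beta lists without overlap were *Nrros*, which anchors latent TGF-beta on myeloid cells, at 64.4 ± 3.89 and 73.9 ± 5.62 FPKM, and *Smad4*, the common SMAD, at 12.5 ± 0.963 and 8.45 ± 1.91 FPKM (SD, n = 3 each), with adjusted p of 0.650 and 0.507 (limma). On reference transcripts alone *Nrros* fell below the minimum for testing and its groups overlapped, so its values rest on assembled transcripts.

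Receptors of the other factors fell into those the macrophages carry and those near 0. *Csf1r*, the M-CSF receptor, was by far the most abundant, at 613 ± 37.8 FPKM in control and 617 ± 52.4 FPKM in exposed cultures (SD, n = 3 each). *Nrp2* stood at 73.7 ± 8.38 and 78.9 ± 7.57 FPKM, and *Il6st*, which encodes gp130, at 10.2 ± 1.42 and 10.7 ± 1.82 FPKM (SD, n = 3 each). *Met* stood at 4.35 ± 1.35 and 5.75 ± 0.337 FPKM and *Igf1r* at 2.41 ± 0.619 and 3.15 ± 0.461 FPKM (SD, n = 3 each). None of these passed the test in limma, with adjusted p of 0.702 for *Met* and 0.797 for *Igf1r*.

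*Pdgfra*, *Pdgfrb*, *Flt1*, *Kdr*, *Egfr* and *Osmr* were all below a mean of 1 FPKM and were not tested. *Flt1*, which encodes VEGF receptor 1, was above 0 in 1 library only, at 0.214 FPKM. *Osmr*, the receptor subunit for oncostatin M, did not exceed 0.842 FPKM in any library. *Nrp1* was at 31.5, 30.8 and 0 FPKM in control and 30.3, 28.0 and 32.4 FPKM in exposed libraries, so that 1 control library listed at 0 set its log2 fold change of 2.72 (SE 2.55, adjusted p 0.801, limma).

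Of the shedding enzymes, *Adam17*, which frees HB-EGF and other membrane-bound ligands, was at 62.7, 60.4 and 59.5 FPKM in control and 89.4, 74.4 and 82.0 FPKM in exposed libraries. The exposed libraries were all higher, with a log2 fold change of 0.42 and an adjusted p of 0.242 in FPKM, and of 0.0027 in FPM (limma). *Cd9*, a tetraspanin that associates with HB-EGF at the membrane, was at 433 ± 20.9 and 382 ± 23.9 FPKM (SD, n = 3 each), without overlap and with an adjusted p of 0.486 (limma).

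The remaining tested genes without overlap lay in 3 lists and did not pass the test. *Igfbp4*, which encodes an IGF binding protein, was at 118 ± 6.64 and 99.7 ± 3.63 FPKM, and *Insr* at 6.74 ± 0.239 and 5.88 ± 0.173 FPKM (SD, n = 3 each). *Csf2rb2*, a beta subunit of the IL-3 receptor, was at 47.9 ± 7.73 and 77.2 ± 15.4 FPKM, and *Bmp1*, a procollagen protease, at 3.76 ± 0.452 and 6.76 ± 1.69 FPKM (SD, n = 3 each). Their adjusted p were 0.456, 0.818, 0.246 and 0.423 in this order (limma). Of the 124 genes, 28 were listed at 0 in every library, among them *Igf2*, *Areg*, *Tgfa*, *Btc*, *Pgf*, *Csf2*, *Fgf2* and *Bmp4*.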

How the data were processed

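All 6 libraries of the series were used, 3 control and 3 exposed. Paired reads of 100 bp were mapped by the authors with TopHat and Bowtie (genome build mm10), and Cufflinks quantified each library, with versions not given in the sources used here. The deposited FPKM are per transcript, for 34535 reference lines and 1453 to 1654 transcripts assembled in each library, and the deposited coverage is the mean read depth of a transcript. The methods also name TMM and removal of low FPKM, yet low values were present in the files.

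FPKM were summed per symbol, with assembled transcripts of the same gene included, and reference transcripts alone were the alternative. Genes averaging 1 FPKM or more entered the test as log2(FPKM + 0.1) with limma 3.58.1 in R 4.3.3 (trend and robust, two-sided, Benjamini-Hochberg, threshold 0.05). Fold changes are on that scale and understate changes of low genes. RNA fragments were estimated from coverage, length and read length, with 205 to 212 bases taken off the length. This offset was chosen in each library to bring most low values to whole numbers. With it, 93.4% to 94.3% of low values came out within 0.1 of a whole number, so this share is no independent check. The exact 95% intervals of RNA fragments cover counting error only, since fragments without molecular identifiers are not independent molecules. RNA fragments scaled to library size (FPM) were tested as log2(FPM + 1). Scripts were tested on simulated data. Positions are those of the files, with 1 added to starts, and GENCODE M21 gave exons and sequences. Python 3.11.15 was used for tables and figures.

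The members and gene lists were chosen with earlier results of these data known. Named were all members, their receptors, list genes past the threshold in FPKM or fragments, and up to 3 list genes per list without overlap between groups.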

Additional observations from a re-analysis of the deposited data

How the results depend on the processing

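Across 180 fits of the 9 tested growth factors under other settings (pseudocount, filter, scaling, variance model, weights, replicate block, transcript lines, RNA fragments and leaving out 1 library), 0 passed the threshold, with a smallest adjusted p of 0.439 in limma. The direction was kept in 170 and reversed in 10. The filter, the variance model and the replicate block leave a log2 fold change as it was, so their fits could not reverse a direction. The same holds for transcript settings in genes whose lines they do not change. Reversed log2 fold changes were 0.39 for *Igf1* on reference transcripts only, 0.0069 for *Igf1* on models of more than 2000 bases (chosen after seeing the data) and 0.45 for *Hgf* on lines with status OK only. Leaving out 1 library gave ranges of -0.0044 to 0.10 for *Tgfb1*, -0.44 to 0.19 for *Igf1*, -0.13 to 0.37 for *Pdgfa*, 0.34 to 0.72 for *Pdgfb*, 0.21 to 0.56 for *Vegfa*, -0.67 to -0.38 for *Vegfb*, -0.76 to -0.10 for *Osm*, -0.28 to 0.032 for *Hgf* and -0.51 to -0.17 for *Csf1*. Reversals came without control 2 for *Tgfb1*, without control 1 or exposed 3 for *Igf1* (0.17 and 0.19), without control 1, control 3 or exposed 2 for *Pdgfa* (-0.05, -0.13 and -0.03) and without exposed 1 for *Hgf*.

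The list genes past the threshold, 1 in FPKM, numbered 2 at a mean of at least 5 FPKM, 3 in FPM, and 0 without trend and robust estimation, on reference transcripts only and with the replicate block. Leaving out 1 library gave 0 to 1, and 0 without control 1, without control 2 and without each exposed library in turn. All genes past the threshold, 38 in FPKM, numbered 18 without trend and robust estimation, 18 with the replicate block, 19 on reference transcripts only and 268 in FPM, with 8 to 30 when 1 library was left out and the fewest without exposed 1. The cause of these shifts was not tested. Libraries of the same number correlated at -0.0926 to 0.0673 in their deviations from the group means. Of 6 libraries, 2 were closest to their own number. No pairing by number was seen, but a weak one could go unseen with so few libraries.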

Other observations

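The genes whose log2 FPKM followed *Igf1* most closely over the 6 libraries were *Frs2* (Pearson r = 0.978), *Zfand5* (0.968) and *Brap* (0.968), out of 5524 genes averaging 10 FPKM or more. For *Vegfb* they were *Ypel5* (0.981), *Fam53a* (0.972) and *Tmem115* (0.971). These values describe 6 libraries, which share the depth and transcript models of each library. The *Igf1* values they follow are those set by the short transcript models.

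Among secreted growth factors outside the 10 genes, *Grn*, which encodes progranulin, stood above all of them at 863 ± 31.7 FPKM in control and 849.9 ± 15.7 FPKM in exposed cultures (SD, n = 3 each). *Thbs1*, a matrix protein known to activate latent TGF-beta, was at 224 ± 5.31 and 239 ± 30.9 FPKM (SD, n = 3 each). Their adjusted p were 0.923 and 0.820 in limma.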
